A study of Mus musculus with 13 samples.

Results

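The 49 genes described here are the antigen presentation genes on the array: every gene whose platform symbol starts with H2-, the mouse name of the major histocompatibility complex (MHC), together with Cd74, Ciita, Ctss, B2m, Tap1, Tap2, Tapbp, Nlrc5, Psmb8, Psmb9, Psmb10, Erap1, Cd1d1, Mr1, Cd80 and Cd86. They were chosen by name, not by a measured value, and are 49 of the 18820 genes measured. Each of 13 Affymetrix arrays measured RNA of epididymal white adipose tissue, fat of the abdominal cavity, from male mice aged 18 weeks. Wild-type C57BL/6 mice and P2X7-/- mice (B6.129P2-P2rx7tm1Gab/J, crossed back to B6 for 7 generations) ate chow, with 13% of its energy as fat, or for 12 weeks a high-fat diet, with 60%. Both wild-type groups and the knockout chow group had 3 arrays each, and the knockout high-fat group had 4. P2X7 is a channel that extracellular ATP opens, and the study's title concerns its part in inflammasome activation in obese fat. All cells of the knockout mice carry the altered gene, and the line was bought and then bred. Whether an array stands for a single animal is not in the labels, so p-values rest on the spread among these arrays.

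MHC class I molecules sit on nearly all nucleated cells and show CD8 T cells peptides cut by the proteasome. The immunoproteasome, found in immune and inflamed cells, cuts peptides suited to them, the TAP transporter brings them into the endoplasmic reticulum, and each heavy chain needs beta-2 microglobulin (B2m) for its fold. Class II molecules show CD4 T cells peptides from endosomes and belong mainly to macrophages, dendritic cells and B cells, although adipocytes are also known to carry them in obesity. The class Ib and class I-like molecules, among them CD1d and MR1, show lipids or small metabolites as well as peptides to specialised T cells.

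Each value is the authors' log2 expression after robust multi-array averaging (RMA), so a difference of 1 is a 2-fold change. Group means were compared with limma over all 18820 genes, and a gene passed at an adjusted p under 0.05. Array medians ran from 5.72 to 5.88, and arrays of a group correlated at r of 0.993 to 0.998 over all genes. Each knockout group held an array that was often the highest of its group, in these genes or in cell marker means. Among knockout mice on chow, replicate 1 was the highest of its 3 arrays for 31 of the 49 genes and for 16 of 17 class I and 7 of 7 class II pathway genes, sets drawn up after the values were seen. Among knockout mice on high-fat diet, replicate 2 had a B cell marker mean of 6.59 and a T cell marker mean of 6.19 (log2), the highest of its 4 arrays for both. Wild-type groups were uneven too. Chow replicate 1 was the highest of its 3 arrays for 22 of the 49 genes and 6 of 7 class II pathway genes. High-fat replicate 2 was the highest of its 3 for 22 of the 49 and 10 of 17 class I pathway genes. The same counts over all genes were not made for any of these arrays. Whether the pattern is particular to these genes is therefore not known. P2rx7 itself, the targeted gene, had a log2 expression of 8.21 ± 0.27 (SD) in wild-type and 8.06 ± 0.16 in knockout mice on chow, and 9.53 ± 0.17 and 9.06 ± 0.11 on high-fat diet. The genotype difference did not pass on either diet (adjusted p = 0.741 and 0.464). The sources used here do not say where the probe set lies relative to the altered part of P2rx7, so these values do not check the genotype labels.

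High-fat feeding raised part of the class II pathway, one class Ia chain and a few class Ib chains, and lowered the lipid and metabolite presenters Cd1d1 and Mr1. In wild-type mice 16 of the 49 genes rose (32.7%) and 4 fell (8.16%), against 17.7% and 18.1% of all genes tested. In knockout mice 10 rose (20.4%) and 7 fell (14.3%), against 14.5% and 19.7% of all genes. The share that rose was thus above the background in wild-type mice and nearer to it in knockout mice. Chow and high-fat arrays did not overlap for 24 of the 49 in wild-type and 21 in knockout mice, against 43.3% and 43% of all genes. The median log2 change of the 49 was 0.09 in wild-type and 0.05 in knockout mice, beside -0.03 and -0.06 over all genes. Of the 49, 19 had a mean log2 expression at or below 6.66, the median over all genes. Of these 19 dim genes 2 rose (10.5%) and 1 fell (5.26%) in wild-type mice. The share over all dim genes was not computed. Of the 30 brighter genes, 46.7% rose in wild-type and 23.3% in knockout mice. In a fit of only the 9966 genes whose highest group mean reached the median over all genes, 28.6% and 23.1% rose. The 30 were set by the mean over all arrays and adjusted over all genes, so the 2 sets match only roughly. In knockout mice their shares, 23.3% and 23.1%, were close. Median centring of the arrays left 16 of 49 higher and 5 lower in wild-type mice, against 15% and 24% of all genes. Over all genes it moved the split from 3327 higher and 3409 lower (49.4% of calls higher) to 2832 and 4523 (38.5%). Without knockout chow replicate 2, 6 of the 49 rose in knockout mice (12.2%, against 11.8% of all genes in the same fit), so the share no longer stood above the background. Without knockout chow replicate 1, 14 rose (28.6%, against 12.7%) and 4 fell (8.16%, against 16.2%). In whole tissue, fewer cells of a type and less RNA per cell cannot be told apart.

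**Figure D1:**
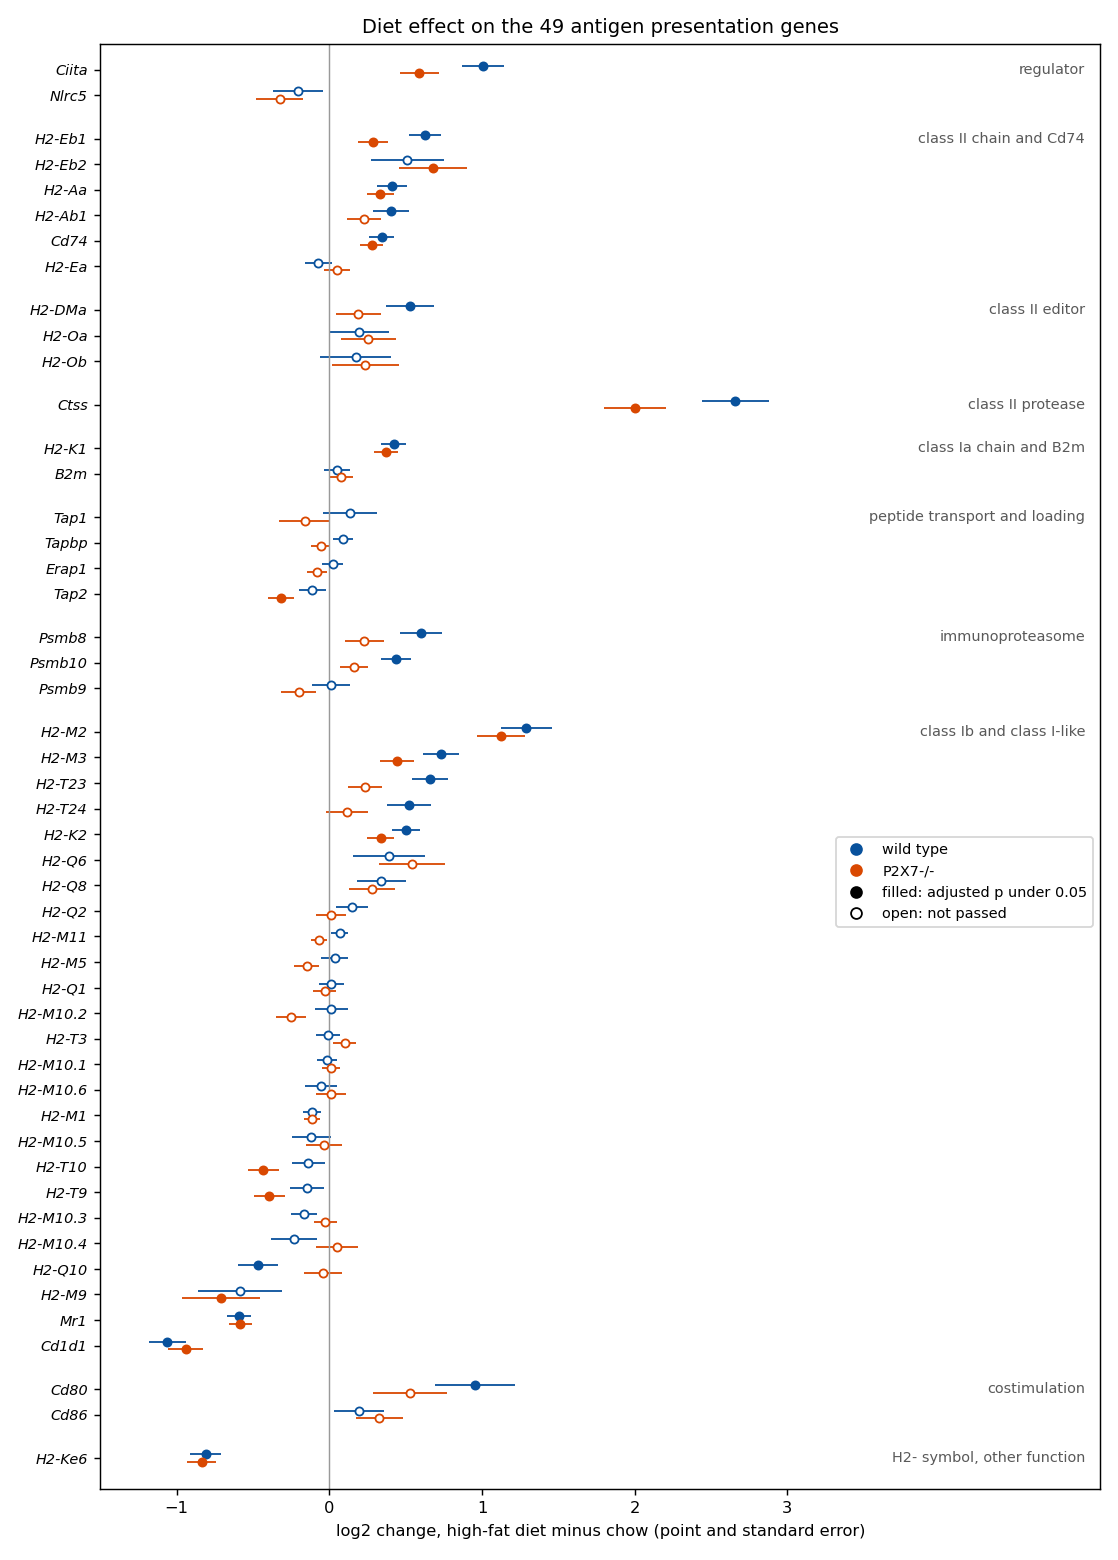
Log2 change on high-fat diet against chow for the 49 genes, grouped by role, with points for the estimate and bars for its standard error, in wild-type (blue) and knockout (orange) mice. Filled points passed at an adjusted p under 0.05. Ctss lies farthest right and Cd1d1 farthest left in wild-type mice, and most class Ib points lie near 0.

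The class II genes share a promoter layout that CIITA, the coactivator that does not touch DNA itself, is known to use: an X box bound by RFX, and a Y box bound by NF-Y some bases nearer the start. The RefSeq promoter table (GRCm38.p6) held 38 windows for 35 of the 49 genes, and the 250 bases before each start were searched on both strands. Ciita, Cd74, H2-Ab1 and H2-Ea had no window, nor did Nlrc5 and Tap2, so their promoters were not searched. The stretches below end at the base before the gene's start, run 5′ to 3′ on the gene's strand, and have GCAAC, letters of the usual class II X box, and GATTGG, the Y box core, in capitals. They are shown because these class II genes had both in the same order, a pairing chosen after the sequences were seen.
H2-Aa, chr17:34287824-34287973, - strand: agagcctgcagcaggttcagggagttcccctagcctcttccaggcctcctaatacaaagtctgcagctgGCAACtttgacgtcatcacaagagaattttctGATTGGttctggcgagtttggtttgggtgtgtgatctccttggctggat
H2-Eb1, chr17:34305717-34305866, + strand: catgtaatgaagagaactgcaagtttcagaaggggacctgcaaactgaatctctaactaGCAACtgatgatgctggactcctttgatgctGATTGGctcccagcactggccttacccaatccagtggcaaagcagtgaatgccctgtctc
H2-Eb2, chr17:34325525-34325674, + strand: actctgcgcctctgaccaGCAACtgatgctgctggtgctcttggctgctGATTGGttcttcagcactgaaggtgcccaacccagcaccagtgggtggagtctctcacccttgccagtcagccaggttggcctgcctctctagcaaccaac
H2-Oa, chr17:34092229-34092378, + strand: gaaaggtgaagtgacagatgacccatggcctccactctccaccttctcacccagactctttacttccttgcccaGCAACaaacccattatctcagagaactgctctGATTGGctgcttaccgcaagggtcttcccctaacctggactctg
H2-Ob, chr17:34238755-34238904, + strand: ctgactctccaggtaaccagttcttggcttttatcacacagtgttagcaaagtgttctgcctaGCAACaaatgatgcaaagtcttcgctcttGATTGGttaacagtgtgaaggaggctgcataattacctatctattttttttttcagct
The bases between GCAAC and GATTGG numbered 27, 26, 26, 27 and 24 in this order, and GATTGG ended 43, 54, 95, 38 and 52 bases before the start. GCAAC followed by GATTGG after 15 to 40 bases was in 5 of 7 windows of class II chains and editors (71.4%), in 0 of 22 windows of class I and class I-like genes and in 0.381% of the 32851 windows of all genes. GATTGG alone was in 23 of 38 windows of the antigen presentation genes (60.5%) and in 14.6% of all windows. The 14-letter X box, searched by its full consensus, was in 4 of the 38 windows (10.5%) and in 0.289% of all windows. These 4 were H2-Ob, the 1 of 7 class II windows with it (14.3%), Mr1, and Tap1 and Psmb9, whose windows overlap and share 1 match. All 5 genes shown had diet changes above 0 in both genotypes, from 0.17 (H2-Ob) to 0.63 (H2-Eb1) log2 in wild-type and from 0.23 (H2-Ob) to 0.68 (H2-Eb2) log2 in knockout mice. Changes above 0 were common, with 32 of the 49 genes in wild-type and 29 in knockout mice. Of the 5, H2-Aa and H2-Eb1 passed in both genotypes, H2-Eb2 in knockout mice alone and H2-Oa and H2-Ob in neither. H2-DMa passed as higher in wild-type mice without the pair in its windows. Differences between these genes were not tested.

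Ciita, the coactivator that switches on class II genes, rose with high-fat diet in both genotypes. Ciita log2 expression in wild-type mice was 6.95, 6.41 and 6.64 on chow and 7.80, 7.67 and 7.56 on high-fat diet. Ciita in knockout mice read 6.92, 6.56 and 6.69 on chow and 7.39, 7.41, 7.35 and 7.10 on high-fat diet (log2 expression). The chow and high-fat arrays did not overlap in either genotype. The log2 change was 1.01 ± 0.14 (standard error; 2.01-fold, adjusted p = 6.45e-05) in wild-type and 0.59 ± 0.13 (1.5-fold, adjusted p = 0.00291) in knockout mice. Nfya, a subunit of the Y box factor NF-Y, was the one of 6 measured class II promoter factors to pass, with log2 changes of 1.26 ± 0.12 and 0.77 ± 0.12. The other 5, Rfx5, Rfxap, Nfyb, Nfyc and Creb1, did not pass in either genotype.

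Of the class II chains, H2-Aa, H2-Eb1 and Cd74 rose in both genotypes and H2-Ab1 in wild-type mice. H2-Aa encodes the alpha chain of the I-A molecule. H2-Aa log2 expression in wild-type mice was 11.74, 11.34 and 11.73 on chow and 12.07, 11.97 and 11.99 on high-fat diet. H2-Aa in knockout mice read 11.65, 11.44 and 11.62 on chow and 11.91, 11.88, 12.01 and 11.81 on high-fat diet (log2 expression). No chow array reached a high-fat array in either genotype, and wild-type chow replicate 2 was the lowest of all 13. H2-Aa changed by 0.41 ± 0.10 (adjusted p = 0.0045) in wild-type and 0.33 ± 0.09 (adjusted p = 0.0115) in knockout mice, on the log2 scale. H2-Ab1 encodes the beta chain that pairs with it. H2-Ab1 log2 expression in wild-type mice was 11.64, 11.04 and 11.45 on chow and 11.81, 11.67 and 11.87 on high-fat diet. H2-Ab1 in knockout mice read 11.47, 11.29 and 11.33 on chow and 11.60, 11.59, 11.69 and 11.49 on high-fat diet (log2 expression). The diets did not overlap, though wild-type chow replicate 1 lay just below the lowest high-fat array. The log2 change of H2-Ab1 was 0.40 ± 0.12 (adjusted p = 0.0165) in wild-type mice and 0.23 ± 0.11 (adjusted p = 0.133), not passed, in knockout mice. In wild-type mice it was 0.24 (adjusted p = 0.0535) without chow replicate 2, 0.36 (adjusted p = 0.0625) without high-fat replicate 3 and 0.40 (adjusted p = 0.0882) when only the groups compared were fitted.

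H2-Eb1 encodes the beta chain of the second class II molecule, I-E, and Cd74 the invariant chain that guards the class II groove on the way to the endosome. H2-Eb1 log2 expression in wild-type mice was 11.20, 10.94 and 11.44 on chow and 11.81, 11.87 and 11.78 on high-fat diet. H2-Eb1 in knockout mice read 11.49, 11.24 and 11.31 on chow and 11.66, 11.62, 11.70 and 11.54 on high-fat diet (log2 expression). High-fat arrays were all above chow arrays of the same genotype. The H2-Eb1 log2 change was 0.63 ± 0.10 (1.54-fold, adjusted p = 0.000304) in wild-type and 0.28 ± 0.10 (adjusted p = 0.0357) in knockout mice. In knockout mice it no longer passed after leaving out chow replicate 2 or 3 or high-fat replicate 1, 2 or 3, with log2 changes of 0.23, 0.27, 0.27, 0.29 and 0.26, nor under median centring (0.25, adjusted p = 0.0543) or a second quantile normalization (0.25, adjusted p = 0.0611). Cd74 log2 expression in wild-type mice was 11.85, 11.48 and 11.75 on chow and 12.10, 11.94 and 12.07 on high-fat diet. Cd74 in knockout mice read 11.74, 11.57 and 11.71 on chow and 11.92, 12.00, 11.98 and 11.92 on high-fat diet (log2 expression). The lowest high-fat array was above the highest chow array in each genotype. Cd74 changed by 0.34 ± 0.08 (adjusted p = 0.0056) and 0.28 ± 0.08 (adjusted p = 0.0148) on the log2 scale, and in knockout mice by 0.22 (adjusted p = 0.0795) without chow replicate 2. H2-Aa in knockout mice likewise changed by 0.27 (adjusted p = 0.066) without that array. Without knockout chow replicate 1 and knockout high-fat replicate 2 together, the knockout log2 change of Cd74 was 0.29 (adjusted p = 0.0532).

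Of the remaining class II chains, H2-Eb2, a second I-E type beta chain, passed in knockout mice and H2-Ea in neither genotype. H2-Eb2 log2 expression in wild-type mice was 4.55, 4.41 and 4.46 on chow and 4.75, 4.88 and 5.32 on high-fat diet. H2-Eb2 in knockout mice read 4.31, 4.39 and 4.28 on chow and 4.51, 5.70, 5.11 and 4.69 on high-fat diet (log2 expression). Knockout high-fat replicate 2, the array with the highest B cell markers, held the highest H2-Eb2 value. The log2 change was 0.51 ± 0.24 (adjusted p = 0.119), not passed, in wild-type mice and 0.68 ± 0.22 (1.6-fold, adjusted p = 0.0317) in knockout mice. In knockout mice it was 0.44 (adjusted p = 0.0544) without that array and 0.64 (adjusted p = 0.0729) without high-fat replicate 3. With high-fat replicate 2 and chow replicate 1 both removed it was 0.44 (adjusted p = 0.117). Without chow replicate 1, 2 or 3 the H2-Eb2 log2 change was 0.67, 0.71 and 0.65, with none passing, and with only the knockout groups in the fit its adjusted p was 0.0513. H2-Ea, the I-E alpha chain, whose promoter is known to be deleted in the H2-b haplotype of C57BL/6 mice, stayed between 3.01 and 3.45 (log2) in all 13 arrays and did not pass. The H2-Eb1 and H2-Eb2 values are RNA of beta chains and do not show that more I-E molecule was made.

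**Figure D2:**
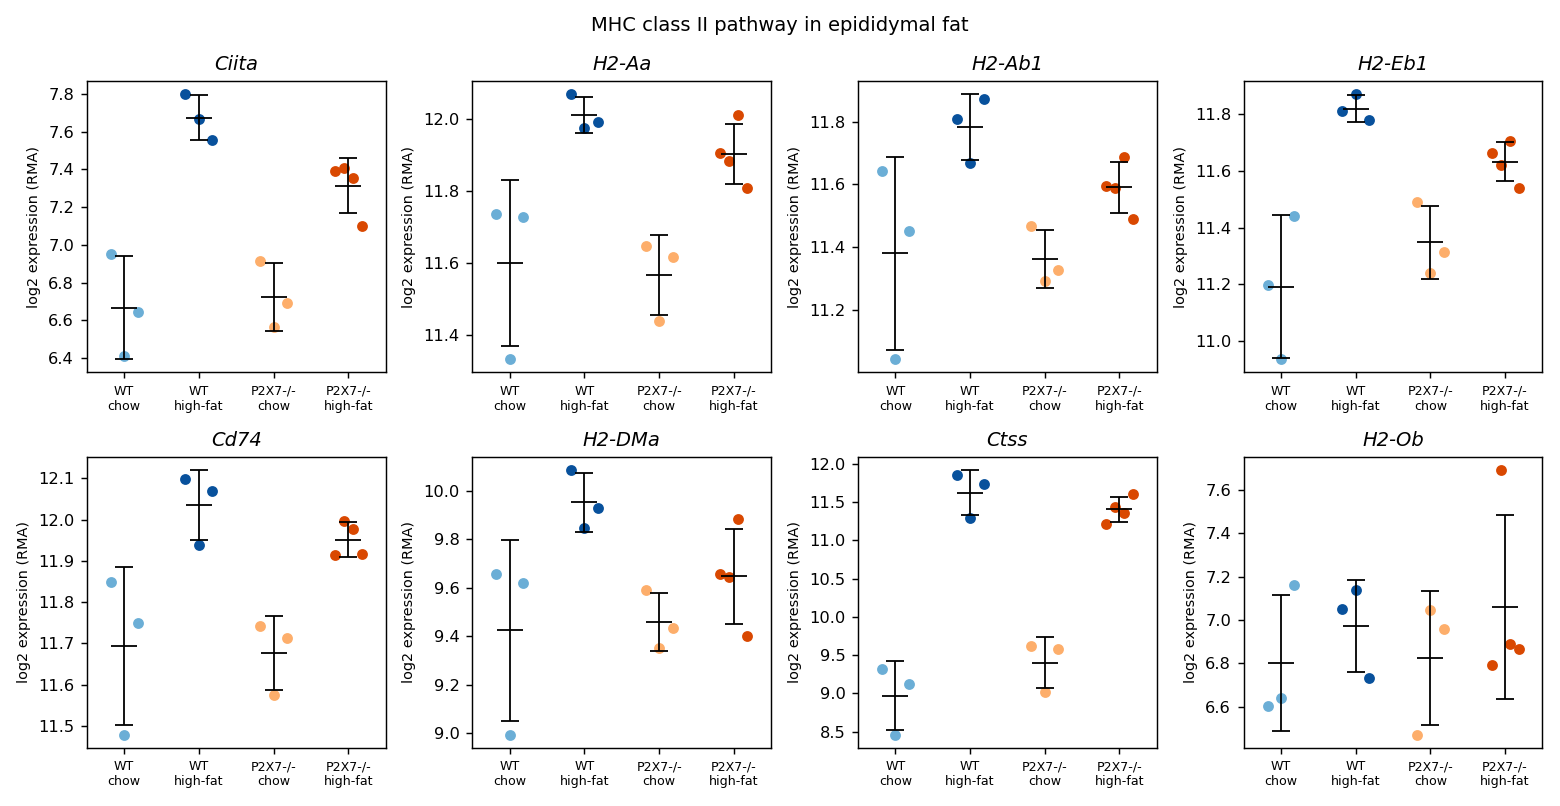
Log2 expression of 8 class II pathway genes in each of the 13 arrays (points), with the group mean and SD (bars), for wild-type and P2X7-/- mice on chow and high-fat diet. The axes differ between panels and do not start at 0. Ciita and Ctss separate the diets by the widest gaps, and H2-Ob shows 1 high knockout array at 7.69.

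Among the class II editors, which help peptides bind or hold them back, H2-DMa rose in wild-type mice. H2-DMa, a chain of the DM molecule that swaps the invariant chain remnant for peptide, went from 9.42 ± 0.37 to 9.95 ± 0.12 log2 (mean ± SD, n = 3 each) in wild-type mice and from 9.46 ± 0.12 (n = 3) to 9.65 ± 0.20 (n = 4) in knockout mice. Its log2 change was 0.53 ± 0.16 (adjusted p = 0.0182) and 0.19 ± 0.15 (adjusted p = 0.368), the latter with overlapping groups. The wild-type change was 0.31 (adjusted p = 0.0693) without chow replicate 2, 0.46 (adjusted p = 0.0699) without high-fat replicate 1 and 0.53 (adjusted p = 0.0669) with only the wild-type groups in the fit. H2-Oa and H2-Ob form DO, the brake on DM that B cells are known to carry, and neither passed: the log2 changes were 0.20 ± 0.19 and 0.25 ± 0.18 for H2-Oa and 0.17 ± 0.24 and 0.23 ± 0.22 for H2-Ob. Knockout high-fat replicate 2 had the highest value of the 13 arrays for both, 5.82 and 7.69 (log2).

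Ctss, the cathepsin that trims the invariant chain in antigen-presenting cells, had the largest diet change of the 49 genes in both genotypes. Ctss log2 expression in wild-type mice was 9.32, 8.46 and 9.12 on chow and 11.85, 11.29 and 11.73 on high-fat diet. Ctss in knockout mice read 9.61, 9.01 and 9.58 on chow and 11.22, 11.44, 11.36 and 11.61 on high-fat diet (log2 expression). The diets were far apart, with no array of either genotype between 9.61 and 11.22 (log2). Ctss rose by 2.66 ± 0.22 log2 (6.32-fold, adjusted p = 7.38e-07) in wild-type and by 2.00 ± 0.20 log2 (4.01-fold, adjusted p = 6.14e-06) in knockout mice. Its promoter is shown because, of the class II pathway windows that could be searched, it alone had an interferon-type motif. Ciita, Cd74, H2-Ab1 and H2-Ea had no window and were not searched. The ISRE-like letters GAAANNGAA were in 4 of the 38 windows (10.5%) and in 7.13% of all windows, and the GAS-like letters TTCNNNGAA in 3 (7.89%) and 7.02%. Ctss carried GAAACCGAA, in capitals, near the start.
Ctss, chr3:95526636-95526785, + strand: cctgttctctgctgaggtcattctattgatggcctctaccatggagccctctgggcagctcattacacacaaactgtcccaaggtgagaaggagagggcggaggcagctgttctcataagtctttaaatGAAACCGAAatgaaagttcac
Endosomal proteases and other turnover genes outside the 49 moved with it. Of 9 measured, 7 rose and none fell in each genotype, with a median log2 change of 0.76 in wild-type and 0.55 in knockout mice. Ctsz, a cathepsin, rose by 1.00 ± 0.06 and 0.83 ± 0.05 log2. Lgmn, the asparagine endopeptidase, rose by 1.42 ± 0.11 and 1.42 ± 0.10 log2. Ctsl, another cathepsin, rose by 0.73 ± 0.05 and 0.55 ± 0.05 log2.

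Markers of macrophages and dendritic cells, the usual carriers of class II, moved in the same comparison. Of 11 macrophage markers, 10 rose and 0 fell in wild-type mice and 10 rose and 1 fell in knockout mice, with median log2 changes of 1.23 and 1.07. The rises were 2.32 ± 0.13 and 1.95 ± 0.13 log2 for Adgre1 (F4/80), 2.29 ± 0.14 and 1.95 ± 0.13 for Cd68 and 2.39 ± 0.19 and 2.02 ± 0.18 for Fcgr1 (CD64). The macrophage marker mean ran from 9.41 to 9.68 log2 on chow and 10.66 to 11.09 on high-fat diet in wild-type mice, and from 9.63 to 9.83 and 10.67 to 10.96 in knockout mice. Of 10 dendritic cell markers, 6 rose and 3 fell in wild-type and 5 rose and 2 fell in knockout mice, with median log2 changes of 0.63 and 0.30. Itgax (CD11c), which macrophages of obese fat also carry, rose by 3.92 ± 0.35 and 3.03 ± 0.33 log2, Clec9a by 0.87 ± 0.12 and 0.46 ± 0.11, and Flt3 by 0.77 ± 0.13 and 0.62 ± 0.12. The markers that fell, named after their values were seen, were Cd209a, with log2 changes of -0.70 ± 0.24 and -0.91 ± 0.22, Zbtb46, a transcription factor of conventional dendritic cells, with -0.49 ± 0.14 and -0.56 ± 0.13, and Siglech, a marker of plasmacytoid dendritic cells, with -0.51 ± 0.16 and, not passed, -0.38 ± 0.15. The dendritic cell marker mean ran from 6.28 to 6.62 log2 on chow and 7.02 to 7.27 on high-fat diet in wild-type mice, and from 6.46 to 6.73 and 6.94 to 7.08 in knockout mice. Of 7 B cell markers none passed in either genotype, and their mean lay between 4.79 and 6.59 log2 over all arrays. Of 8 T cell markers 1 rose in wild-type and none in knockout mice, with means between 5.04 and 6.19, and of 6 natural killer cell markers none passed, with means between 4.93 and 5.22.

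The mean of H2-Aa, H2-Ab1, H2-Eb1 and Cd74 ran from 11.20 to 11.61 log2 on chow and 11.86 to 11.95 on high-fat diet in wild-type mice, and from 11.39 to 11.59 and 11.69 to 11.85 in knockout mice. Minus the macrophage marker mean of the same array, it was 1.79 to 1.97 on chow and 0.84 to 1.20 on high-fat diet in wild-type mice, and 1.76 to 1.78 and 0.81 to 1.10 in knockout mice, all in log2. This difference was smaller in every high-fat array than in any chow array of the genotype. Minus the dendritic cell marker mean, the values were 4.92 to 5.00 on chow and 4.68 to 4.84 on high-fat diet in wild-type mice, and 4.84 to 4.92 and 4.69 to 4.87 in knockout mice. The dendritic cell mean includes Itgax, whose log2 rises of 3.92 and 3.03 were the largest of its 10 markers. The difference without Itgax was not computed, so it is not known whether the class II mean lagged the other dendritic cell markers. Over these 4 chains the median log2 change was 0.41 in wild-type and 0.28 in knockout mice, below the median of the macrophage markers. The part of these cell markers in the class II changes was not tested.

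**Figure D3:**
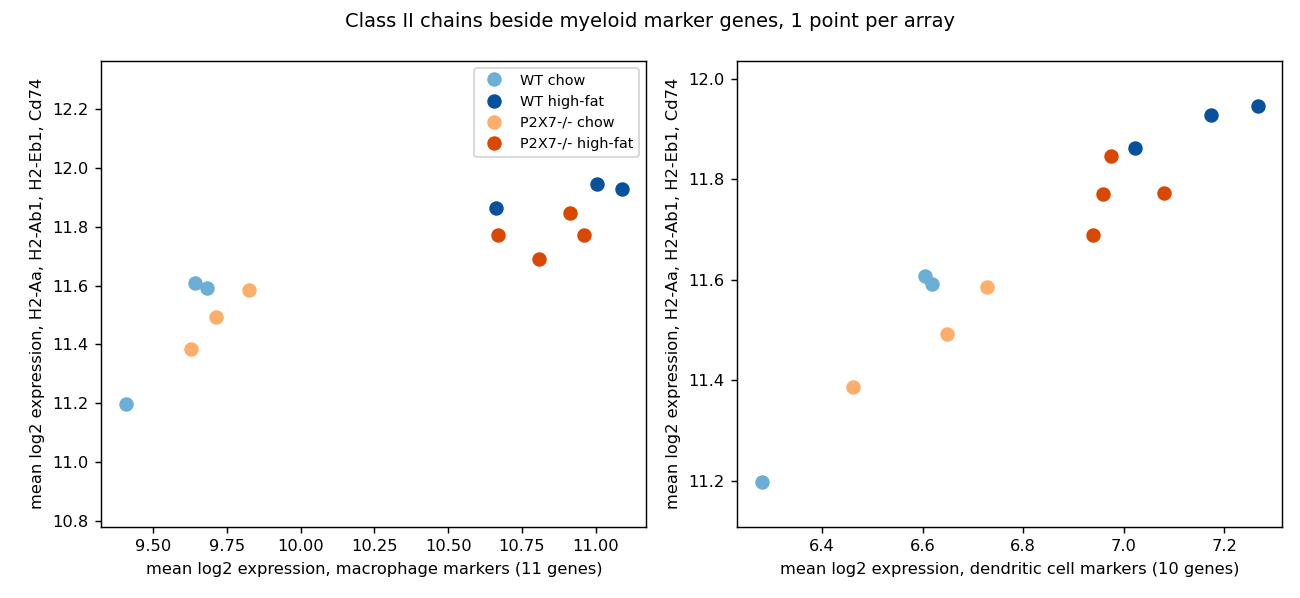
Mean log2 expression of H2-Aa, H2-Ab1, H2-Eb1 and Cd74 against the mean of 11 macrophage markers (left) and 10 dendritic cell markers (right), 1 point per array, coloured by genotype and diet. On the left the high-fat arrays sit at macrophage means of 10.66 to 11.09 and the chow arrays at 9.41 to 9.83, while the class II mean spans 11.20 to 11.95.

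H2-K1, the class Ia heavy chain that could be measured alone, rose with high-fat diet in both genotypes. H2-K1 log2 expression in wild-type mice was 10.82, 11.10 and 10.91 on chow and 11.28, 11.43 and 11.39 on high-fat diet. H2-K1 in knockout mice read 11.23, 11.20 and 11.03 on chow and 11.59, 11.46, 11.42 and 11.62 on high-fat diet (log2 expression). High-fat arrays lay above all chow arrays of their genotype. H2-K1 changed by 0.42 ± 0.08 log2 (1.34-fold, adjusted p = 0.0013) in wild-type and 0.37 ± 0.08 log2 (1.29-fold, adjusted p = 0.00225) in knockout mice. The probe set for H2-D1, the other class Ia chain, also names H2-K1 and was left out, as were 6 more probe sets that name several genes. Because class I chains are alike in sequence, the values of H2-K1 and of the H2-Q, H2-T and H2-K2 genes may share signal with each other. B2m, the partner of every class I heavy chain, did not pass. B2m log2 expression in wild-type mice was 12.14, 12.45 and 12.48 on chow and 12.35, 12.39 and 12.49 on high-fat diet. B2m in knockout mice read 12.43, 12.41 and 12.49 on chow and 12.50, 12.41, 12.62 and 12.55 on high-fat diet (log2 expression). The diet groups overlapped in both genotypes. The B2m log2 change was 0.05 ± 0.08 (adjusted p = 0.694) and 0.08 ± 0.08 (adjusted p = 0.499).

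Nlrc5, known as the class I counterpart of CIITA, did not pass in either genotype. Nlrc5 log2 expression in wild-type mice was 8.57, 8.49 and 8.28 on chow and 8.00, 8.32 and 8.40 on high-fat diet. Nlrc5 in knockout mice read 9.02, 8.64 and 8.33 on chow and 8.47, 8.52, 8.22 and 8.14 on high-fat diet (log2 expression). Knockout chow replicate 1 was the highest of all 13 arrays. The log2 change was -0.21 ± 0.16 (adjusted p = 0.367) in wild-type and -0.33 ± 0.15 (adjusted p = 0.122) in knockout mice, and neither passed. The array holds 19 probe sets for Nlrc5, and the changes above are those of the brightest. The diet change was below 0 for 18 of the 19 in wild-type mice, with none passing, and for 19 of 19 in knockout mice, with 12 passing as lower. Every one of the 19 had its highest value in knockout chow replicate 1.

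**Figure D4:**
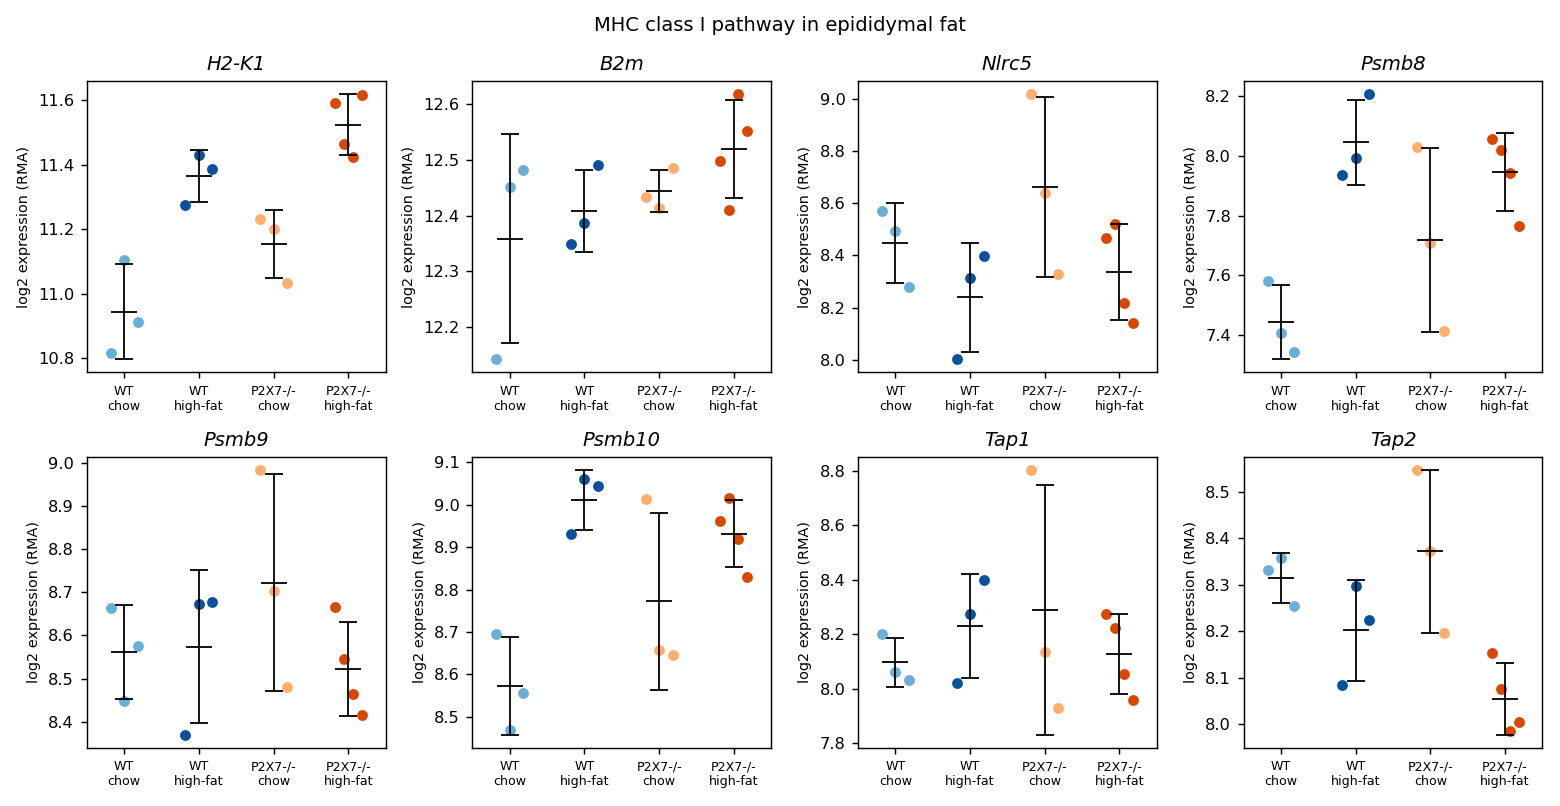
Log2 expression of 8 class I pathway genes in each array (points), with the group mean and SD (bars), by genotype and diet, on axes that differ between panels and do not start at 0. H2-K1 separates the diets in both genotypes, and knockout chow replicate 1 sits highest of its group for Nlrc5, Psmb8, Psmb9, Psmb10, Tap1 and Tap2.

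Of the 3 immunoproteasome subunits, 2 rose in wild-type mice and none passed in knockout mice. Psmb8 log2 expression in wild-type mice was 7.58, 7.41 and 7.34 on chow and 7.94, 7.99 and 8.21 on high-fat diet. Psmb8 in knockout mice read 8.03, 7.71 and 7.41 on chow and 8.06, 8.02, 7.94 and 7.76 on high-fat diet (log2 expression). Wild-type diets did not overlap, whereas knockout chow replicate 1 lay within the high-fat range. Psmb8 changed by 0.60 ± 0.14 log2 (1.52-fold, adjusted p = 0.0035) in wild-type and 0.23 ± 0.13 (adjusted p = 0.194) in knockout mice. Psmb10 changed by 0.44 ± 0.10 (adjusted p = 0.00295) and 0.16 ± 0.09 (adjusted p = 0.203) log2, and Psmb9 by 0.01 ± 0.12 (adjusted p = 0.956) and -0.20 ± 0.11 (adjusted p = 0.207). The difference between the genotypes did not pass for any of the 3, with interaction log2 values of -0.37 ± 0.19 for Psmb8, -0.28 ± 0.13 for Psmb10 and -0.21 ± 0.17 for Psmb9. Among 7 genes of the constitutive proteasome and its activators, 3 rose and 2 fell in wild-type mice and 0 rose and 1 fell in knockout mice. Psmb5, the standard counterpart of Psmb8, changed by 0.30 ± 0.07 and 0.08 ± 0.06 log2, with the first passing, and the activator subunit Psme1 fell by 0.31 and 0.34 log2.

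No peptide transport or loading gene passed as higher in either genotype, and Tap2 fell in knockout mice. Tap1 and Tap2 form the peptide transporter, Tapbp (tapasin) tethers it to the class I molecule, and Erap1 trims the peptides. In wild-type mice the log2 changes of the 4 ran from -0.11 (Tap2) to 0.13 (Tap1), with none passing. In knockout mice Tap2 fell by 0.32 ± 0.08 log2 (adjusted p = 0.00993), from 8.37 ± 0.17 to 8.05 ± 0.08 (mean ± SD, n = 3 and 4). Without knockout chow replicate 1 the Tap2 change was -0.23 (adjusted p = 0.06), and without that array and knockout high-fat replicate 2 it was -0.24 (adjusted p = 0.0896). Of 8 further genes for loading and trimming, 4 rose and 0 fell in wild-type mice, and 1 rose and 2 fell in knockout mice. Calr (calreticulin), a chaperone of class I loading, changed by 0.43 ± 0.07 and 0.15 ± 0.06 log2, the first passing. Hspa5 (BiP), a general chaperone of the endoplasmic reticulum, changed by 0.48 ± 0.08 and 0.10 ± 0.08 log2, again passing in wild-type mice. Tap1 and Psmb9 lie head to head, and the 225 bases between their starts are shown, on the strand of Tap1, because they were the class I pathway windows that held both an X box and a Y box core. Capitals mark CCAATC, the Y box core as read on this strand, and the X box. The X box and GATTGG read on opposite strands here. The spaced pair of GCAAC and GATTGG seen in the class II genes was in neither window.
Tap1 and Psmb9, chr17:34187331-34187555, + strand: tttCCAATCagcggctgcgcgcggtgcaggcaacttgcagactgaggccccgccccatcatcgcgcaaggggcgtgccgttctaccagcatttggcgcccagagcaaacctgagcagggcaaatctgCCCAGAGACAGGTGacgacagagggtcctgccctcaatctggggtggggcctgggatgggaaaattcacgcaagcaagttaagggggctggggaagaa
The 2 genes that share this stretch had log2 changes of 0.13 ± 0.18 and 0.01 ± 0.12 in wild-type mice; in knockout mice these were -0.16 ± 0.17 and -0.20 ± 0.11, and none passed.

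Interferon-gamma is the textbook inducer of both Ciita and the immunoproteasome. Of 9 measured genes of its pathway, 3 rose and 1 fell in wild-type mice, and 3 rose and 2 fell in knockout mice, with median log2 changes of -0.04 and -0.17. Irf8, a transcription factor that myeloid cells also carry, rose by 1.95 ± 0.12 and 1.64 ± 0.12 log2. Of the receptor chains, Ifngr2 rose by 0.83 ± 0.06 and 0.61 ± 0.06 log2, while Ifngr1 fell by 0.29 and 0.23. Ifng itself and its target Irf1 did not pass, with log2 changes of 0.17 ± 0.13 and -0.17 ± 0.12 for Ifng and -0.21 ± 0.11 and -0.24 ± 0.10 for Irf1.

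The class I-like genes Cd1d1 and Mr1 fell with high-fat diet in both genotypes. CD1d shows lipids to invariant natural killer T cells and is known to be abundant on adipocytes. Cd1d1 log2 expression in wild-type mice was 11.01, 11.11 and 11.21 on chow and 9.95, 10.34 and 9.85 on high-fat diet. Cd1d1 in knockout mice read 11.29, 11.21 and 11.33 on chow and 10.55, 10.15, 10.25 and 10.38 on high-fat diet (log2 expression). All high-fat arrays lay below all chow arrays. The Cd1d1 log2 change was -1.06 ± 0.12 (2.09-fold lower, adjusted p = 1.28e-05) in wild-type and -0.94 ± 0.11 (1.92-fold lower, adjusted p = 2.63e-05) in knockout mice. MR1 shows vitamin B metabolites to mucosal-associated invariant T cells. Mr1 log2 expression in wild-type mice was 10.19, 10.14 and 10.13 on chow and 9.54, 9.62 and 9.51 on high-fat diet. Mr1 in knockout mice read 9.96, 10.07 and 10.24 on chow and 9.60, 9.38, 9.58 and 9.46 on high-fat diet (log2 expression). These groups did not overlap either. Mr1 had a log2 change of -0.59 ± 0.08 (1.51-fold lower, adjusted p = 4.59e-05) and -0.58 ± 0.07 (1.5-fold lower, adjusted p = 3.77e-05). Adipocyte markers fell in the same comparison: of 8, 7 fell and 1 rose in each genotype, with median log2 changes of -0.72 and -0.64. The log2 changes were -2.31 ± 0.21 and -2.25 ± 0.20 for Slc2a4 (GLUT4), -1.23 ± 0.12 and -1.07 ± 0.11 for Retn (resistin) and -0.73 ± 0.09 and -0.66 ± 0.08 for Plin1 (perilipin). The adipocyte marker mean ran from 12.04 to 12.17 log2 on chow and 11.12 to 11.59 on high-fat diet in wild-type mice, and from 12.15 to 12.21 and 11.32 to 11.64 in knockout mice. All 5 mesothelial markers fell in both genotypes, with median log2 changes of -1.14 and -1.18, and of 6 endothelial markers 3 fell in wild-type and 1 in knockout mice. Of 6 fibroblast markers 1 rose and 1 fell in wild-type mice, and 2 rose and 2 fell in knockout mice. The part of these markers in the falls of Cd1d1 and Mr1 was not tested.

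**Figure D5:**
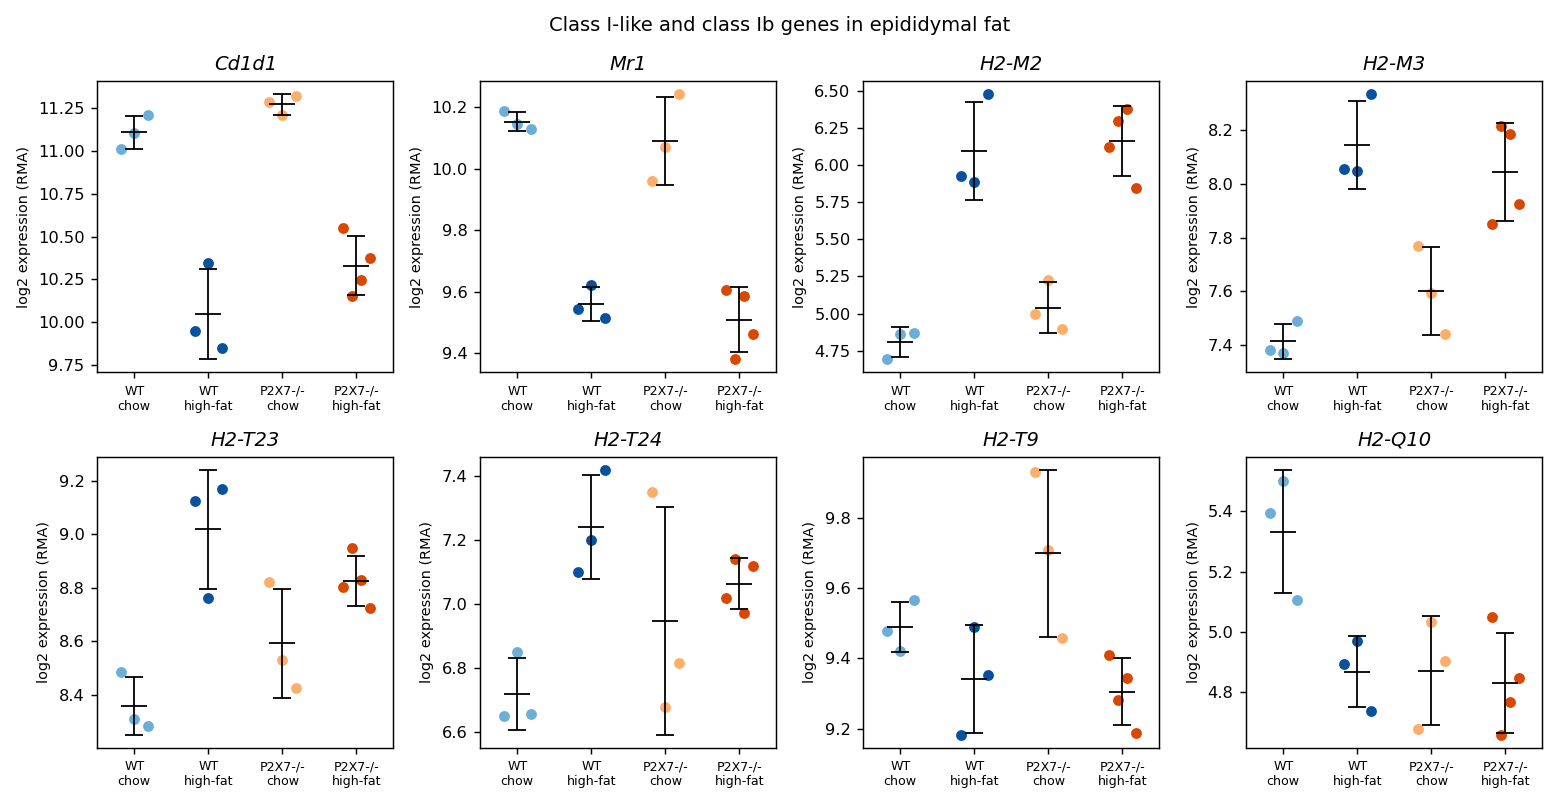
Log2 expression of 8 class I-like and class Ib genes in each array (points), with the group mean and SD (bars), by genotype and diet, on axes that differ between panels and do not start at 0. Cd1d1 and Mr1 are lower, and H2-M2 and H2-M3 higher, in every high-fat array than in any chow array of the same genotype.

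Over the 25 class Ib and class I-like genes, Cd1d1 and Mr1 included, 5 rose and 3 fell in wild-type mice and 3 rose and 5 fell in knockout mice, with median log2 changes of -0.01 and -0.03. These shares, 20% and 12% in wild-type and 12% and 20% in knockout mice, lie near or below the shares over all genes given above. H2-M2, a class Ib heavy chain, rose most. H2-M2 log2 expression in wild-type mice was 4.69, 4.86 and 4.87 on chow and 5.93, 5.89 and 6.48 on high-fat diet. H2-M2 in knockout mice read 5.00, 5.23 and 4.89 on chow and 6.12, 6.30, 6.38 and 5.85 on high-fat diet (log2 expression). There was no overlap between the diets. H2-M2 rose by 1.29 ± 0.17 log2 (2.44-fold, adjusted p = 4.1e-05) and 1.12 ± 0.16 log2 (2.18-fold, adjusted p = 9.12e-05). H2-M3 shows formylated peptides, a mark of bacteria and mitochondria, to T cells. H2-M3 log2 expression in wild-type mice was 7.38, 7.37 and 7.49 on chow and 8.06, 8.05 and 8.34 on high-fat diet. H2-M3 in knockout mice read 7.77, 7.60 and 7.44 on chow and 7.85, 8.22, 8.19 and 7.92 on high-fat diet (log2 expression). Again each high-fat array was above the chow arrays of its genotype. H2-M3 rose by 0.73 ± 0.12 log2 (1.66-fold, adjusted p = 0.000252) and 0.44 ± 0.11 log2 (1.36-fold, adjusted p = 0.00672).

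H2-T23 encodes Qa-1, the ligand of the NKG2A and CD94 receptor of natural killer cells. H2-T23 log2 expression in wild-type mice was 8.48, 8.31 and 8.28 on chow and 9.12, 8.76 and 9.17 on high-fat diet. H2-T23 in knockout mice read 8.82, 8.53 and 8.43 on chow and 8.80, 8.95, 8.83 and 8.72 on high-fat diet (log2 expression). Wild-type diets were separate, and in knockout mice chow replicate 1 overlapped the high-fat arrays. The H2-T23 log2 change was 0.66 ± 0.12 (1.58-fold, adjusted p = 0.000643) in wild-type and 0.23 ± 0.11 (adjusted p = 0.126) in knockout mice. H2-K2 changed by 0.50 ± 0.09 (adjusted p = 0.000717) and 0.33 ± 0.09 (adjusted p = 0.00843) log2 and passed in both. H2-T24 changed by 0.52 ± 0.15 (adjusted p = 0.0128) and 0.11 ± 0.14 (adjusted p = 0.564) log2, and in wild-type mice by 0.43 (adjusted p = 0.059) without high-fat replicate 3. H2-T9 and its close copy H2-T10, the latter known as a ligand of gamma-delta T cells, passed as lower in knockout mice alone. Their log2 changes were -0.39 ± 0.10 (adjusted p = 0.00906) and -0.43 ± 0.10 (adjusted p = 0.00457), beside -0.15 ± 0.11 and -0.14 ± 0.11 in wild-type mice. Without knockout chow replicate 1, the highest of its group for both, the knockout changes were -0.28 (adjusted p = 0.0535) for H2-T9 and -0.34 (adjusted p = 0.0295) for H2-T10. With knockout high-fat replicate 2 also removed they were -0.27 (adjusted p = 0.098) and -0.34 (adjusted p = 0.0536).

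H2-M9 belongs to a class Ib family known from vomeronasal neurons. H2-M9 log2 expression in wild-type mice was 5.30, 5.76 and 6.18 on chow and 4.79, 5.39 and 5.32 on high-fat diet. H2-M9 in knockout mice read 6.84, 5.92 and 5.78 on chow and 5.60, 5.64, 5.20 and 5.44 on high-fat diet (log2 expression). Knockout chow replicate 1, at 6.84, was above the other 12 arrays, the next being 6.18. The log2 change was -0.58 ± 0.27 (adjusted p = 0.12) in wild-type and -0.71 ± 0.26 (1.64-fold lower, adjusted p = 0.0471) in knockout mice. Without that array the knockout change was -0.38 (adjusted p = 0.245), and without it and knockout high-fat replicate 2 -0.44 (adjusted p = 0.229). The call was also lost, with log2 changes from -0.84 to -0.62, when any of 7 other arrays was left out: wild-type chow replicate 2, wild-type high-fat replicate 3, knockout chow replicate 2 or any knockout high-fat array. H2-Q10, a secreted class Ib chain known from liver, fell in wild-type mice by 0.47 ± 0.13 log2 (adjusted p = 0.0128) and changed by -0.04 ± 0.12 log2 in knockout mice, not passed. The wild-type change was -0.38 (adjusted p = 0.06) without chow replicate 2 and -0.40 (adjusted p = 0.0548) without high-fat replicate 3. Of 5 liver markers 3 fell in wild-type and 0 in knockout mice. Their mean ran from 8.28 to 9.31 log2 on chow and 6.11 to 8.35 on high-fat diet in wild-type mice, and from 6.58 to 6.79 and 5.73 to 7.21 in knockout mice, and their part in H2-Q10 was not tested. The other class Ib genes did not pass: the 14 left ranged from -0.23 to 0.39 in log2 change in wild-type mice and from -0.25 to 0.54 in knockout mice, with the Qa-2 family genes H2-Q6 (0.39 ± 0.23 and 0.54 ± 0.22) and H2-Q8 (0.34 ± 0.16 and 0.28 ± 0.15) at the upper end.

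Of the costimulatory ligands that CD28 on T cells needs beside the MHC signal, Cd80 rose in wild-type mice and Cd86 did not pass. Cd80 log2 expression in wild-type mice was 7.03, 6.89 and 7.05 on chow and 8.78, 7.34 and 7.70 on high-fat diet. Cd80 in knockout mice read 7.10, 7.02 and 7.16 on chow and 7.54, 7.63, 7.88 and 7.42 on high-fat diet (log2 expression). Wild-type high-fat replicate 1 was far above the rest, yet the diets did not overlap in either genotype. The Cd80 log2 change was 0.95 ± 0.26 (1.94-fold, adjusted p = 0.0108) in wild-type and 0.53 ± 0.24 (adjusted p = 0.117) in knockout mice. Without wild-type high-fat replicate 1 it was 0.53 (adjusted p = 0.00907), and with only the wild-type groups in the fit the adjusted p was 0.0739. Cd86 log2 expression in wild-type mice was 7.84, 6.93 and 7.40 on chow and 7.53, 7.58 and 7.64 on high-fat diet. Cd86 in knockout mice read 7.38, 7.21 and 7.47 on chow and 7.61, 7.70, 7.62 and 7.78 on high-fat diet (log2 expression). The wild-type groups overlapped, with chow replicate 1 the highest array of all. Cd86 changed by 0.19 ± 0.17 (adjusted p = 0.415) and 0.33 ± 0.15 (adjusted p = 0.125) log2. Of 10 partners of costimulation, 3 rose and 0 fell in wild-type mice and 2 rose and 1 fell in knockout mice. Cd276 (B7-H3), a relative of Cd80, rose by 1.01 ± 0.15 and 0.83 ± 0.14 log2, and Cd40, the receptor by which helper T cells license antigen-presenting cells, rose by 0.78 ± 0.12 and 0.81 ± 0.11. Cd28, carried by T cells, changed by 0.48 ± 0.16 and 0.37 ± 0.15 log2 and passed in wild-type mice.

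One gene with an H2- symbol presents no antigen. H2-Ke6, also named Hsd17b8, lies in the MHC region and encodes an enzyme of steroid and fatty acid metabolism. H2-Ke6 log2 expression in wild-type mice was 8.82, 9.29 and 9.14 on chow and 8.26, 8.34 and 8.23 on high-fat diet. H2-Ke6 in knockout mice read 8.99, 9.09 and 8.99 on chow and 8.23, 8.17, 8.29 and 8.05 on high-fat diet (log2 expression). All high-fat arrays were below all chow arrays. H2-Ke6 had a log2 change of -0.81 ± 0.10 (1.75-fold lower, adjusted p = 3.26e-05) and -0.84 ± 0.10 (1.78-fold lower, adjusted p = 1.71e-05). Of the 48 genes with a RefSeq entry, 37 lie on chromosome 17, where the mouse MHC is; H2-K1, H2-Aa and H2-Ke6 are all there.

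Loss of P2X7 changed none of the 49 genes at an adjusted p under 0.05 on either diet. With limma on chow, 0 of 49 passed, where 0.133% of all genes did. At an unadjusted p under 0.05 with limma, 2 of the 49 were higher and 1 lower in knockout mice (6.12% together, against 9.62% of all genes). The smallest adjusted p was that of H2-Q10, with a log2 change of -0.46 ± 0.13 (adjusted p = 0.272) and groups that did not overlap. On high-fat diet 0 of 49 passed with limma, where 0.0425% of all genes (8) did, and 1 was higher and 1 lower at an unadjusted p under 0.05 (4.08% together, against 7.41% of all genes). Without wild-type high-fat replicate 2, 177 genes of the whole array passed on high-fat diet (0.94%), none of them among the 49. Over the whole array 25 genes passed on chow, 44 without that same array, 2 without knockout chow replicate 1 and 9 without knockout chow replicate 2, again with 0 of the 49. Among the 49 on high-fat diet the smallest adjusted p was that of Ciita, at -0.36 ± 0.13 (adjusted p = 0.623), whose highest knockout array, 7.41, lay below the lowest wild-type array, 7.56. The 2 groups did not overlap for 6 of the 49 genes on chow and 3 on high-fat diet, where 14.9% and 6.68% of all genes did not. For the class II chains the log2 difference of knockout from wild-type mice on high-fat diet was -0.11 ± 0.09 for H2-Aa, -0.19 ± 0.11 for H2-Ab1, -0.19 ± 0.10 for H2-Eb1 and -0.08 ± 0.08 for Cd74. For H2-K1 it was 0.16 ± 0.08 and for B2m 0.11 ± 0.08.

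No gene of the 49 had a diet effect shown to depend on genotype. In the diet-by-genotype interaction 0 of 49 passed with limma, as did 0% of all genes, and 1 was above and 4 below 0 at an unadjusted p under 0.05 (10.2% together, near the 9.72% of all genes). Without wild-type high-fat replicate 2, 21 genes of the whole array passed above 0 and 85 below, none of them among the 49. The interaction estimate was below 0, that is a lower diet change in knockout mice, for 33 of the 49 (67.3%) and for 58.5% of all genes. H2-T23 had the smallest adjusted p, with -0.42 ± 0.16 (adjusted p = 0.445). The estimates were -0.66 ± 0.30 for Ctss, -0.42 ± 0.19 for Ciita, -0.34 ± 0.14 for H2-Eb1 and -0.43 ± 0.36 for Cd80, all in log2, and the macrophage markers had a median of -0.25. So a pass in wild-type mice alone, as for Psmb8, H2-DMa, H2-T24 and Cd80, is not a shown difference between the genotypes.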

How the data were processed

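RNA from 13 samples in 4 groups was hybridised to Affymetrix arrays, starting from 100 ng total RNA with an RNA integrity number above 8, per the labels' protocols. The deposited values are log2 expression values that the authors made with RMA, per the submitters' processing notes; its version and the genome build behind the annotation are not given in the sources used here. RMA scales arrays toward a common distribution, so a change shared by most genes may not show in full. Medians of the deposited arrays still ran from 5.72 to 5.88, and median centring changed the calls over all genes. No further normalization was applied.

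Of 35556 probe sets, 21218 named 1 gene, 1881 several and 12457 none in the platform annotation. Those naming 1 gene were kept, and the one with the highest mean stood for its gene, which gave 18820 genes. The 49 members had 68 such probe sets, and 7 that name several genes, a member among them, were left out. RefSeq gene IDs matched 48 of 49 (H2-T9 was not matched) and renamed none.

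A linear model with a mean per group was fitted to all arrays with limma 3.58.1 in R 4.3.3, with variances moderated on an intensity trend. The comparisons were diet in each genotype, genotype on each diet and the interaction, with Benjamini-Hochberg adjustment over all 18820 genes and a threshold of 0.05. Errors of log2 changes are standard errors. Members and lists were chosen with earlier results of these data known. Values in every array are given for members that passed with at least 1.5-fold in a diet comparison, and always for H2-K1, B2m, H2-Aa, H2-Ab1, H2-Eb1, Cd74, Ciita, Nlrc5, Cd80 and Cd86 (H2-D1 had no probe set of its own). From each list at most 3 passing genes with the smallest p in wild-type mice are named. Ifng, Irf1 and the promoter factors that did not pass were named outside this rule, with their values in view. Of 134 list entries 126 were measured.

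On simulated arrays with 200 of 18820 genes changed, the recovered share of 1.5-fold and of 2-fold changes was 66% and 94% (wild-type diet comparison), 71% and 98% (knockout diet comparison), 77% and 94% (genotype, chow), 75% and 94% (genotype, high-fat diet) and 50% and 85% (interaction). Of the simulated calls, 3.61% to 7.65% fell on unchanged genes. The adjusted threshold depends on how many genes change, and the data differed from the 200 simulated. They had 6736 and 6429 calls for diet, 25 and 8 for genotype and 0 for the interaction. The recovered shares may therefore be too high for the genotype and interaction comparisons and too low for diet. Precision is limited by how few arrays there are. The settings varied were the variance trend, the scaling of arrays, the removal of dim genes, which probe sets represent a gene, array weighting, the samples fitted, a fold minimum, blocking on replicate number and the omission of single arrays. The removal of 2 arrays together was added after seeing the data. Motif searches and figures used Python 3.11.15, pandas 2.3.3, numpy 2.4.6 and matplotlib 3.10.9.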

Additional observations from a re-analysis of the deposited data

Results flagged for a closer look

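Among the 4 arrays of knockout mice on high-fat diet, 4 of the 49 genes had an array that stood far from its 3 companions (8.16%), as did 8.23% of all genes, where chance alone gives about 1 in 20. H2-Ob, a chain of the DO brake of B cells, read 7.69 (log2) in replicate 2, against 6.79 to 6.89 in the others. The mean of the 8 T cell markers was 6.19 in the same array. H2-K2 read 6.89 in replicate 4, against 6.79 to 6.81 in the others, and H2-M10.3 read 3.24 in replicate 4, with the next array at 3.46. H2-Ea read 3.17 in replicate 1, only 0.013 above the other 3 arrays, which held 1 identical low value, so the ties alone set it apart.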

How the results depend on the processing

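Of 37 called gene changes, 15 kept direction and call under each alternative tried and 24 under each apart from the 1.5-fold minimum. Of 846 comparisons of a change with an alternative, 61 lost the call and 0 reversed. Only changes called in the first fit were followed, so calls gained under an alternative are not in these counts. Without knockout chow replicate 1, for example, the genes that rose in knockout mice went from 10 to 14. Genes that rose in wild-type mice numbered 8 with the 1.5-fold minimum (16.3%, against 8.76% of all genes). With each array left out in turn, 14 to 17 rose, against 15.3% to 17.9% of all genes. In knockout mice 4 rose with the minimum (8.16%, near the 7.09% of all genes). With each array left out 6 to 14 rose there, against 11.8% to 14.9%. Genes that fell in wild-type mice numbered 3 with the minimum (6.12%, against 7.33%). With each array left out 3 to 5 fell, against 14.9% to 19.5% of all genes. In knockout mice 3 fell with the minimum (6.12%, against 6.05%). There 4 to 8 fell with each array left out, against 15.4% to 20.4%. With knockout chow replicate 1 and knockout high-fat replicate 2 both removed, 4 fell in knockout mice, against 13.6% of all genes. Genotype and interaction counts stayed at 0 of 49 in each alternative. Over 18 pairs of arrays with the same replicate number, the correlation of deviations ran from -0.298 to 0.222, with 6 above 0.1. For number 2 it ran from 0.14 to 0.222 among both wild-type groups and knockout chow, and from -0.298 to -0.03 against knockout high-fat arrays. Pairs of unlike number were not computed, so these values do not settle whether the numbers pair the samples. With the replicate number as a block, 16 genes rose and 4 fell in wild-type mice, against 17.3% and 17.7% of all genes. In knockout mice 10 rose and 6 fell, against 13.1% and 16.7%, and H2-M9 lost its call (-0.70, adjusted p = 0.132). Genotype calls over all genes went from 25 to 6 on chow and from 8 to 0 on high-fat diet in the block fit. The cause of these shifts was not tested.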
